A study of Mus musculus with 15 samples.

Results

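miR-122 is the best-known liver microRNA (miRNA), and its 5p arm, mmu-miR-122-5p (miR-122-5p), is described here in the livers of mice on 3 diets. The arm was chosen by its name on the array, and it was 1 of 696 mouse miRNA names. It was read by 2 probes of 1937, with 20 of the 13920 miRNA spots on each array. The 3p arm, which is the other strand of the hairpin, had 0 probes on this array and was not analyzed here. All 15 animals were male mice of the strain that the labels spell B6C57/J, aged 1 year when the diets began, and the diets continued for life. The 5 SD mice ate the standard AIN-93G diet ad libitum, 5 CR mice ate the same diet under 40% caloric restriction, and 5 Met mice ate it ad libitum with 0.1% w/w metformin, an oral glucose-lowering drug, added. The age at tissue collection was not given in the sources used here. Each mouse had 1 array with total liver RNA.

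A miRNA is a short RNA that is cut from a hairpin precursor by DROSHA and then DICER1, is loaded into an Argonaute protein, and lowers the output of mRNAs that pair with its seed, the bases near its 5′ end. miR-122-5p is made almost only in hepatocytes, where its gene is driven by liver-enriched transcription factors such as HNF4A. It is known for its part in cholesterol and lipid metabolism and as a host factor that hepatitis C virus needs. The miRNAs miR-192-5p, miR-194-5p, miR-148a-3p, miR-101a-3p, miR-101b-3p and miR-802-5p are also abundant or enriched in hepatocytes and are set beside it below.

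The mature sequences of the miRNAs compared with miR-122-5p in the hepatocyte list, with the seed (bases 2 to 8) in capitals, are shown so that their seeds can be compared. They are RefSeq sequences of mouse assembly GRCm38.p6, 5′ to 3′.
miR-192-5p (chr19:6264857-6264877, plus strand): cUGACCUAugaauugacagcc
miR-194-5p (chr19:6264658-6264679, plus strand, and a second copy on chromosome 1): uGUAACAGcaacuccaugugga
miR-148a-3p (chr6:51269829-51269850, minus strand): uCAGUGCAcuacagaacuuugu
miR-101a-3p (chr4:101346957-101346977, minus strand): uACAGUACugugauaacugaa
miR-101b-3p (chr19:29135338-29135356, plus strand): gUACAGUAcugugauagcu
miR-802-5p (chr16:93369737-93369758, plus strand): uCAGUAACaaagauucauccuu
The capitals differ among all 6, but miR-101a-3p and miR-101b-3p share a stretch of 15 bases, offset by 1 base, and whether their probes tell them apart was not tested. miR-192-5p and miR-194-5p come from neighboring hairpins on chromosome 19.

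The 15 arrays lay on 2 slides. Slide 1 held all SD mice and Met mice 1 to 3, and slide 2 held all CR mice and Met mice 4 and 5. CR and SD therefore shared no slide, and for that comparison the slide and the diet cannot be told apart except in a fit that links the slides through the Met mice. Between 151 and 205 miRNAs were detected per array, and CR mice 2 and 3 had the fewest, 167 and 151. The summed signal of all miRNA names ran from 181779 to 245386 units in SD, from 88899 to 168803 in CR and from 162483 to 213659 in Met. The mean log2 signal of the positive control spots was 13.54 ± 0.12 in SD, 13.87 ± 0.16 in CR and 13.57 ± 0.31 in Met (mean ± standard deviation, n = 5 each). The part of the slide and of labeling in the results below was not tested beyond the values given.

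miR-122-5p was detected on all 15 arrays, and all 20 of its spots were well above background on every array. None was saturated. Its brightest spot reached between 0.938% and 2.37% of the saturation value, so the scanner ceiling did not limit its level.

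The level was first read as the total gene signal, which is the software's background-subtracted sum over the probes of a miRNA, on a linear scale with no scaling between arrays. In SD mice 1 to 5 the total gene signal of miR-122-5p was 16169, 16352, 25651, 18005 and 25165. In CR mice 1 to 5 it was 23192, 14485, 9922, 16460 and 25039. In Met mice 1 to 5 it was 22992, 21639, 23223, 22893 and 25989. The Met mice lay close together, whereas SD and CR each held both dim and bright livers, and the 3 diets overlapped.

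The mean was 20268 ± 4749 in SD, 17820 ± 6251 in CR and 23347 ± 1600 in Met (mean ± standard deviation, n = 5 each). On the log2 scale, Met was higher than SD by 0.23 and CR was lower than SD by 0.23, with adjusted exact p = 0.262 and 0.405. CR was lower than Met by 0.46, with adjusted exact p = 0.262. The exact permutation tests were two-sided and used every split of the 10 mice into equal groups, with Benjamini-Hochberg adjustment over the 3 comparisons, and no difference passed. Without CR mice 2 and 3, the log2 difference between CR and SD turned to 0.10 higher in CR. Read as the median spot signal minus the positive control spots, which were brighter in CR, the log2 difference was -0.60 for CR against SD and -0.76 for CR against Met, both with an adjusted exact p = 0.0595. Within slide 1 the log2 difference of Met from SD was 0.19, and within slide 2 that of CR from Met was -0.53, with exact p = 0.411 and 0.238. In a whole-liver extract, fewer hepatocytes and less miR-122-5p per hepatocyte cannot be told apart.

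miR-122-5p was among the brightest names in every liver. By total gene signal it ranked 2nd or 3rd of 696 names, with rank 3 in all 5 SD mice, rank 2 in 2 CR mice and rank 2 in 4 Met mice. Over the 15 arrays, its mean signal of 20478 came after those of miR-1937b_v16.0, at 56584, and miR-2146_v15.0, at 23537. miR-1937b_v16.0 was above miR-122-5p on 14 arrays and miR-2146_v15.0 on 10. The next names by mean signal were miR-2138_v15.0 at 6968 and miR-2141_v15.0 at 5567. These 4 names carry a version suffix in the array's annotation, as do 28 of the 696 names, and the files do not say what the suffix means. A rank here is one of signal, not of molecules, because probes differ in how much light a given amount of RNA gives.

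Among the 668 names without a suffix, miR-122-5p ranked first on all 15 arrays. The next such name was miR-494-3p, miR-21a-5p, miR-22-3p or let-7a-5p, depending on the array. miR-122-5p stood 3.15-fold to 10.2-fold above it, with a median of 7.81-fold. The smallest gap was in Met mouse 4 and the largest in CR mouse 1. miR-494-3p, the brightest of these runners-up by mean, had a mean signal of 2523. miR-21a-5p is known to rise with growth and inflammation, and let-7a-5p belongs to the let-7 family, which holds back growth genes.

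**Figure D1:**
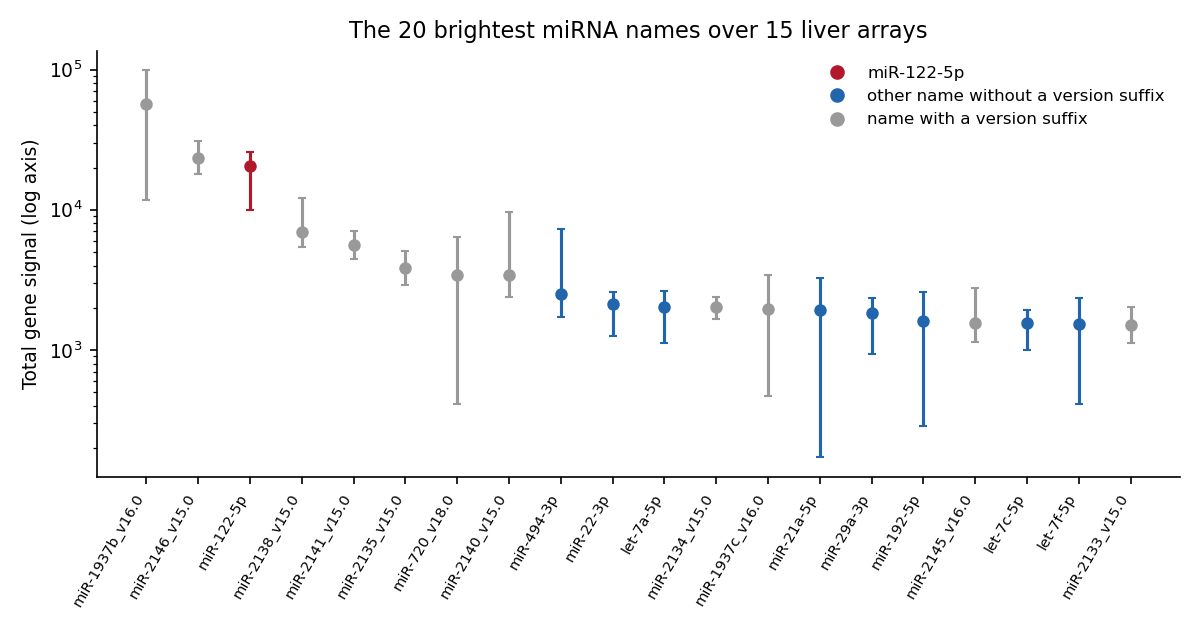
Total gene signal (arbitrary units, log axis) of the 20 brightest miRNA names, with points for the mean over 15 arrays and bars from the lowest to the highest array. miR-122-5p, in red, is at rank 3 with a mean of 20478, above all other names without a version suffix.

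The share of the array's summed signal that miR-122-5p held does not need scaling between arrays. In SD mice 1 to 5 this share was 8.42%, 8.07%, 10.5%, 9.21% and 13.8%. In CR mice 1 to 5 it was 14.7%, 13.8%, 11.2%, 13.0% and 14.8%. In Met mice 1 to 5 it was 13.9%, 11.1%, 11.6%, 14.1% and 12.2%. SD mice 1 to 4 lay below all 5 CR and all 5 Met mice, and SD mouse 5 lay among them.

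The mean share was 9.998% ± 2.34 in SD, 13.5% ± 1.51 in CR and 12.6% ± 1.35 in Met (mean ± standard deviation, n = 5 each). CR exceeded SD by 3.50 percentage points, with an exact p = 0.0397 and an adjusted p = 0.0952. Met exceeded SD by 2.60 points, with an exact p = 0.0635 and an adjusted p = 0.0952. CR exceeded Met by 0.904 points, with an exact p = 0.341. As a share of the summed median spot signal, from which no background is subtracted, the differences were smaller, at 0.616 points for CR against SD (exact p = 0.524) and 1.20 points for Met against SD (exact p = 0.111), and CR lay below Met by a difference of -0.580 points. None passed the limit of 0.05 after adjustment, and the smallest p that this design allows is 0.00794. SD mouse 5 decided the call: without it, the difference from SD was 3.56 points for Met and 4.46 points for CR, both with an adjusted exact p = 0.0238. Within slide 1, Met exceeded SD by 2.24 points, with an exact p = 0.196 over 3 and 5 mice, and within slide 2, CR exceeded Met by 0.370 points, with an exact p = 0.810 over 5 and 2 mice.

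The share also depends on the suffixed names, which together held 55.3% to 74.4% of the signal. miR-1937b_v16.0 alone held 28.6% to 48.8% in SD, 12.1% to 25.8% in CR and 22.2% to 42.3% in Met, so that its CR range lay below its SD range. Among the names without a suffix, miR-122-5p held 32.3% ± 3.07 of the signal in SD, 36.1% ± 1.55 in CR and 34.1% ± 1.54 in Met. The difference from SD was then 3.85 points for CR and 1.82 points for Met, with adjusted exact p = 0.0714 and 0.254. This denominator was chosen after the data were seen.

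**Figure D2:**
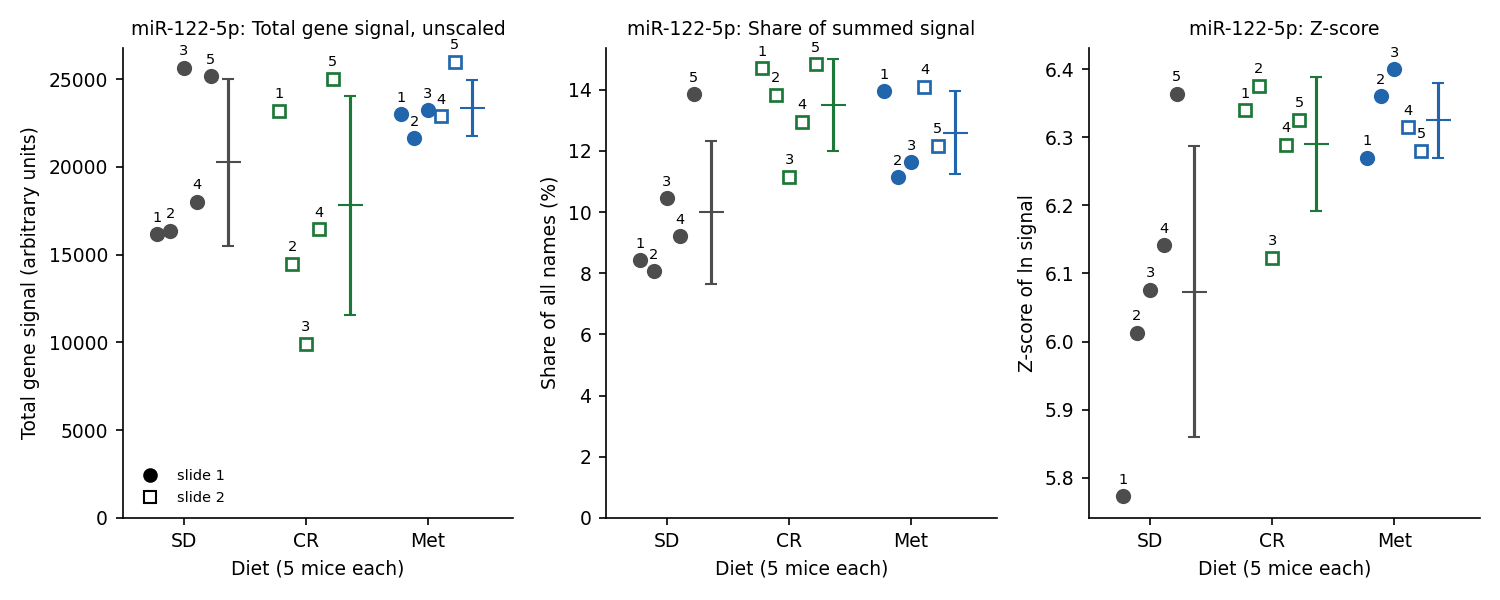
miR-122-5p in each mouse (numbered points), as the unscaled total gene signal (left), the share of the summed signal in percent (middle) and the z-score of the ln signal (right, axis not from 0), with the mean ± standard deviation of 5 mice beside each diet. Filled circles are arrays of slide 1 and open squares those of slide 2. SD mice 1 to 4 lie below all Met mice in the middle and right panels, and SD mouse 5 does not.

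The scale used in the study's processing was the z-score, which places the natural log (ln) of a spot's median signal on its array's own scale: the array mean is subtracted and the result is divided by the array's standard deviation. The z-score of miR-122-5p in SD mice 1 to 5 was 5.77, 6.01, 6.08, 6.14 and 6.36. In CR mice 1 to 5 it was 6.34, 6.38, 6.12, 6.29 and 6.33. In Met mice 1 to 5 it was 6.27, 6.36, 6.40, 6.31 and 6.28. SD mice 1 to 4 again lay below every Met mouse, with SD mouse 5 among the Met mice. CR mouse 3 lay with the SD mice. The mean was 6.07 ± 0.214 in SD, 6.29 ± 0.0985 in CR and 6.32 ± 0.0549 in Met (mean ± standard deviation, n = 5 each).

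The z-scores were compared with limma over 178 tested miRNAs. A miRNA was called when p was at most 0.05, the Benjamini-Hochberg adjusted p at most 0.3 and the Z ratio at least 1.5 in size, where the Z ratio is the difference in z-score divided by the standard deviation of the differences over all 696 names. miR-122-5p was not called in any of the 3 comparisons, beside 1.12% of the tested miRNAs called for Met against SD, 17.4% for CR against SD and 20.8% for CR against Met.

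For Met against SD, the z-score of miR-122-5p differed by 0.252 (SE 0.113), a Z ratio of 4.13 with an unadjusted p of 0.0414 in limma and an adjusted p = 0.669. This was the most positive difference among the 178 miRNAs, but 10 of them had a smaller p. It passed the limits for p and Z ratio and missed that for the adjusted p. For CR against SD, the difference was 0.217 (SE 0.113), a Z ratio of 1.31 with an unadjusted p of 0.0734 and adjusted p = 0.155. It was the 9th most positive of 178. For CR against Met, the difference was -0.0343 (SE 0.113), a Z ratio of -0.221 with an unadjusted p of 0.766 and adjusted p = 0.806.

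The Met result changed its side with SD mouse 5, without which the Z ratio was 4.12 and the adjusted p = 0.168, past all 3 limits. The pairwise test named in the methods, which takes each miRNA's own spread from 10 arrays, also called it, with an adjusted p = 0.129. With the total gene signal, scaled to its 75th percentile on each array, in place of the z-score, the Z ratio was 0.176. Within slide 1 alone the Z ratio was 5.05, with an adjusted p = 0.975, and for CR against Met within slide 2 it was -0.0406, with an adjusted p = 0.969.

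The direction for CR against SD depended on how the arrays were scaled. The standard deviation of the ln signal, by which a z-score is divided, averaged 0.758 ± 0.0267 over the SD arrays and 0.705 ± 0.0478 over the CR arrays (n = 5 each). Before that division, the ln signal of miR-122-5p above the array mean was 4.60 ± 0.215 in SD and 4.44 ± 0.344 in CR, and the Z ratio turned to -1.22. With normexp background correction and quantile normalization it was -0.207. With z-scores taken over the tested miRNAs alone it was 3.08 with an adjusted p = 0.0137, a call. Without CR mouse 3 it was 1.82, also a call, and without both CR mice 2 and 3 it was 2.13, with an unadjusted p of 0.0808 in limma and no call. For CR against Met, the Z ratio was -1.91 with normexp and quantile normalization, a call with an adjusted p = 0.0980, and 1.41 with z-scores over the tested miRNAs.

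**Figure D3:**
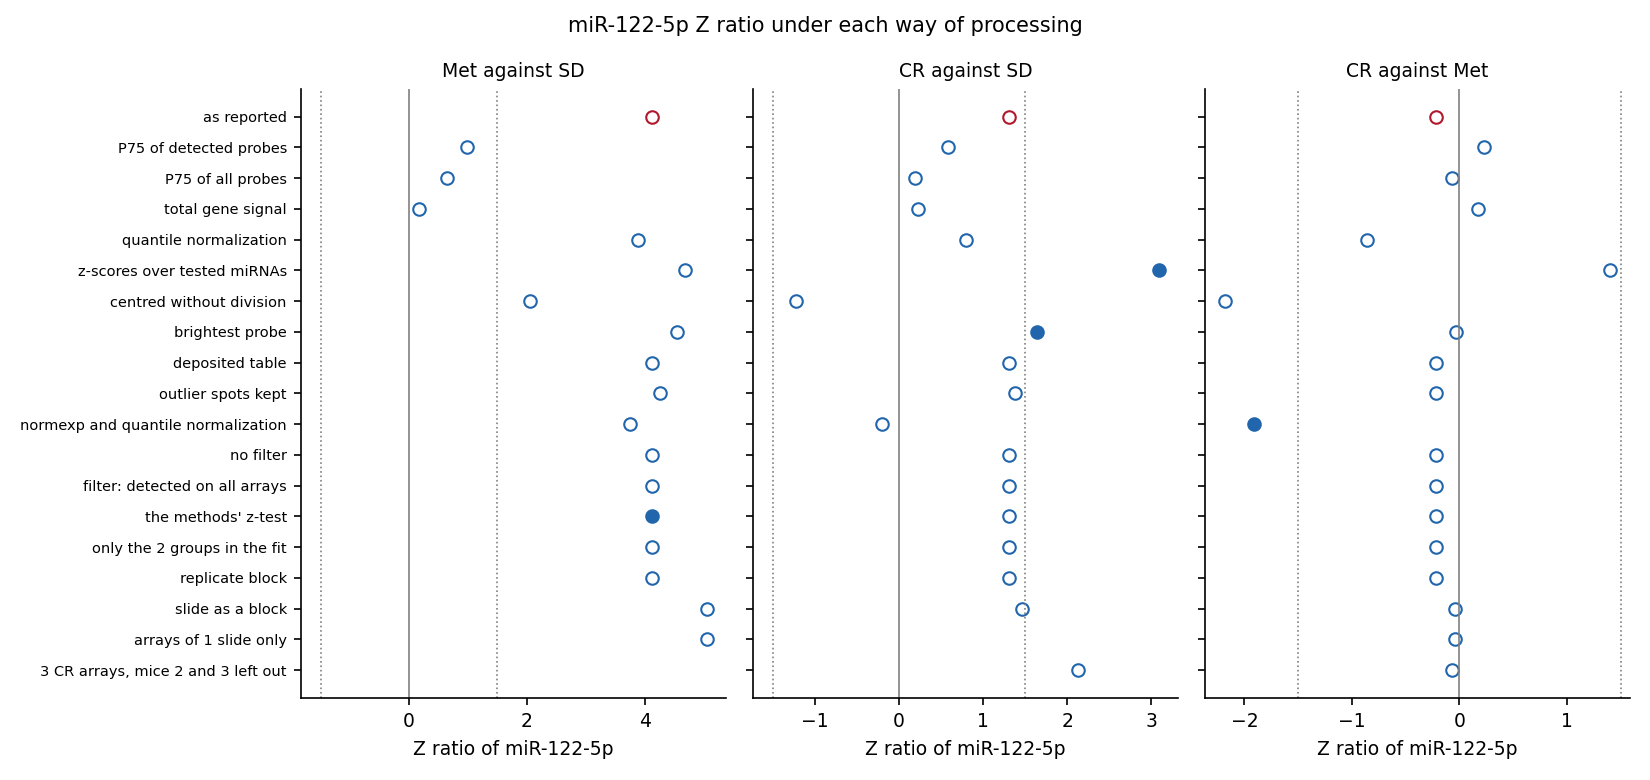
Z ratio of miR-122-5p (horizontal axis) under each way of processing (rows) for the 3 comparisons, with filled points for settings that passed all 3 limits and open points for those that did not. The dotted lines mark a Z ratio of 1.5 in either direction. All settings lie above 0 for Met against SD, from 0.176 to 5.05, while those for CR against SD run from -1.22 to 3.08 and those for CR against Met also lie on both sides of 0.

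The 2 probes of miR-122-5p were both bright on every array, and they differed in level. The signal of the dimmer probe, as the mean of its median spot signals, ran from 8315 to 13770 in SD, from 5254 to 12279 in CR and from 11320 to 13147 in Met. The brighter probe ran from 14719 to 23873 in SD, from 9457 to 23458 in CR and from 19965 to 24636 in Met. CR mouse 3 was dimmest and Met mouse 5 brightest with the brighter probe, and CR mouse 3 was also dimmest with the other.

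Spots of a probe on the same array varied little. The coefficient of variation over spots was 2.14% to 5.33% for the dimmer probe and 2.35% to 7.75% for the brighter. Between mice it was 23.6% in SD, 32.5% in CR and 6.12% in Met for the dimmer probe, and 24.3%, 34.8% and 8.06% for the brighter. Spots of an array share its labeling and hybridization, so the spread over spots leaves these out.

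The ratio of the brighter to the dimmer probe was not quite the same everywhere. It was 1.71 ± 0.075 in SD and 1.84 ± 0.0633 in CR. In Met it was 1.74 to 1.82 in the 3 mice of slide 1 and 1.87 to 1.89 in the 2 mice of slide 2. Hence in the diet with arrays on both slides, the ratio was higher on slide 2, with only 5 arrays behind it. When only the brighter probe was used, the Z ratio was 4.54 for Met against SD, without a call, and 1.64 for CR against SD, a call with an adjusted p = 0.0554.

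**Figure D4:**
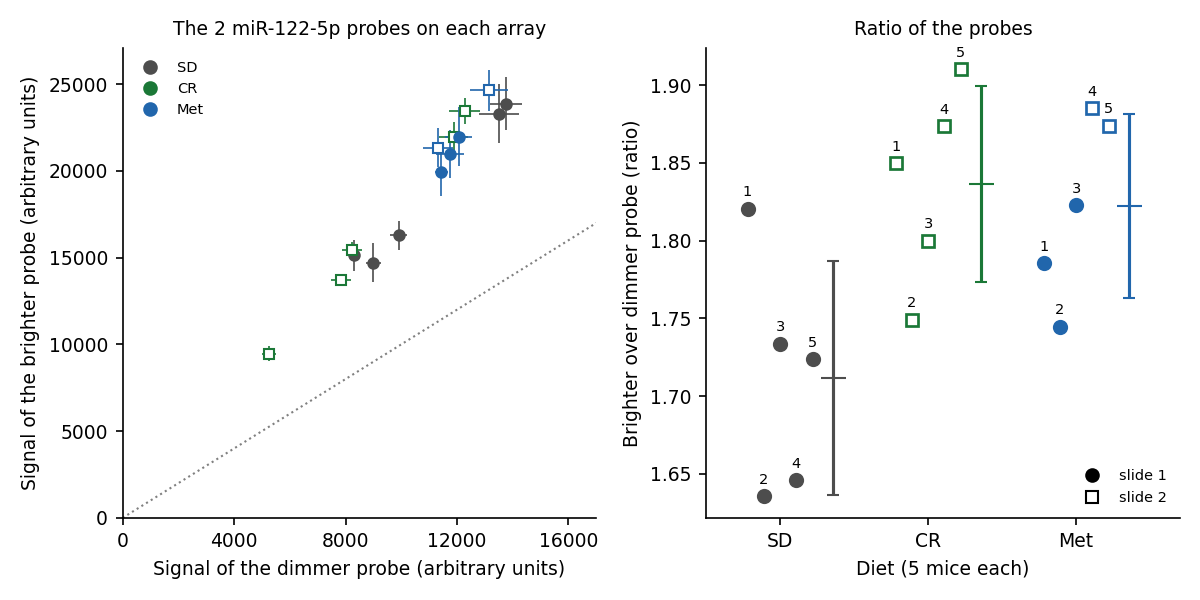
Left, signal of the brighter against the dimmer miR-122-5p probe on each array (arbitrary units), with bars for the standard deviation over the spots and a dotted line at equal signal. Right, their ratio (axis not from 0) by diet, with each numbered mouse and the mean ± standard deviation of 5 mice. Circles are slide 1 and squares slide 2. In Met, the 2 slide 2 arrays, at 1.87 to 1.89, lie above the 3 slide 1 arrays.

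In the fit without a slide term, most of the other hepatocyte miRNAs were called lower in CR than in SD and in Met. CR and SD shared no slide. Of 10 hepatocyte names on the array, 7 were tested, miR-122-5p among them, and 5 were called lower in CR than in SD, beside 14.6% of all tested miRNAs called in that direction. The same number was called lower in CR than in Met, beside 16.3%. These 5 were miR-192-5p, miR-194-5p, miR-148a-3p, miR-101a-3p and miR-101b-3p in both comparisons. Of them, miR-101a-3p entered the test only through SD and Met, where it was detected in every mouse. Among miRNAs detected on all arrays, the other 4 were called lower in both comparisons, beside 17.3% and 19.4% of all miRNAs tested there. None of the 6 tested besides miR-122-5p was called between Met and SD by limma or by the methods' pairwise test, and 0 of the 6 had an unadjusted p of at most 0.05 there. In limma, 1.12% of all tested miRNAs were called there and 6.74% had such a p, so a count of 0 does not set the 6 apart. The median difference in z-score over the 7 was -0.508 for CR against SD, beside -0.0161 over all tested miRNAs, and -0.00747 for Met against SD, beside 0.00838.

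The brightest of them after miR-122-5p was miR-192-5p, a p53-responsive miRNA also made in gut and kidney, with a mean signal of 1614, or 7.88% of that of miR-122-5p. Its z-score was lower in CR than in SD, with a difference of -0.887 (SE 0.273, adjusted p = 0.0257). Of 17 alternatives other than leaving out 1 mouse, the call was lost in 4. These were both scalings to the 75th percentile, the total gene signal and slide as a block. The first 3 missed only the limit for the Z ratio, at -1.20, -1.47 and -0.518, where its divisor was taken over the tested miRNAs alone. Slide as a block missed only that for p, with an unadjusted p of 0.0886 in limma. Without CR mice 2 and 3 the difference was -0.319. miR-194-5p, made in part from the hairpin next to that of miR-192, had a mean signal of 1047, or 5.11%. Its difference was -0.508 (SE 0.180, adjusted p = 0.0440). This call was lost in 7 of the 17, the same 4 and quantile normalization, with or without normexp, and the fit without CR mice 2 and 3, where the difference was -0.164 with an adjusted p = 0.335.

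In a ratio to miR-122-5p on the same array, a scaling factor of that array cancels. Background subtraction and the floor value of undetected miRNAs do not, and the part of array brightness in the ratios was not tested. On this measure, miR-192-5p had 9.76%, 9.68%, 10.04%, 8.90% and 8.11% of the miR-122-5p signal in SD mice 1 to 5. In CR mice 1 to 5 it had 7.10%, 1.98%, 3.00%, 5.82% and 6.27%. In Met mice it had 8.35% to 8.95%. All 5 CR mice lay below all SD and all Met mice, and CR mice 2 and 3 lay lowest.

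miR-148a-3p, a miRNA known for its part in lipoprotein metabolism, had 2.88% to 3.60% of the miR-122-5p signal in SD, 0.638% to 2.37% in CR and 2.61% to 3.04% in Met. miR-101b-3p, whose family targets the methyltransferase EZH2, had 1.07% to 1.66%, 0.148% to 0.943% and 1.07% to 1.23%. For both, CR lay apart from the other diets. miR-194-5p had 5.28% to 6.24% in SD, 2.74% to 5.07% in CR and 4.92% to 5.76% in Met, so that CR and Met overlapped. miR-101a-3p and miR-802-5p were not detected in CR mice 2 and 3, so both entered the test only through SD and Met. miR-802-5p was not called since its Z ratio was -0.994 for CR against SD.

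Summed, the 6 tested hepatocyte miRNAs other than miR-122-5p held 17.9% to 22.3% of its signal in SD, 5.61% to 15.9% in CR and 18.4% to 19.7% in Met. Without CR mice 2 and 3, the CR range was 13.2% to 15.9%, still below both other diets. These ratios show unequal levels within arrays and not which of the miRNAs differed, and they were not tested. In limma without CR mice 2 and 3, 4 of the 6 were called lower in CR than in SD and 5 lower than in Met, beside 10.1% and 8.43% of all tested miRNAs. All 6 differences from SD and from Met were negative under each scaling tried, but the number called lower than in SD ran from 2, with the total gene signal, to 5. With the total gene signal, these 2 were miR-101a-3p and miR-802-5p, beside 7.87% of all tested miRNAs. Both entered the test only through SD and Met, so that count says nothing about miRNAs detected in every CR mouse. With slide as a block the number was 2, miR-101a-3p and miR-101b-3p, beside 7.30% of all tested miRNAs. Within slide 2 alone, with 5 CR and 2 Met mice, all 6 differences from Met were negative and 1, miR-101a-3p, was called, beside 3.93%. As said above, miR-101a-3p entered the test only through SD and Met.

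**Figure D5:**
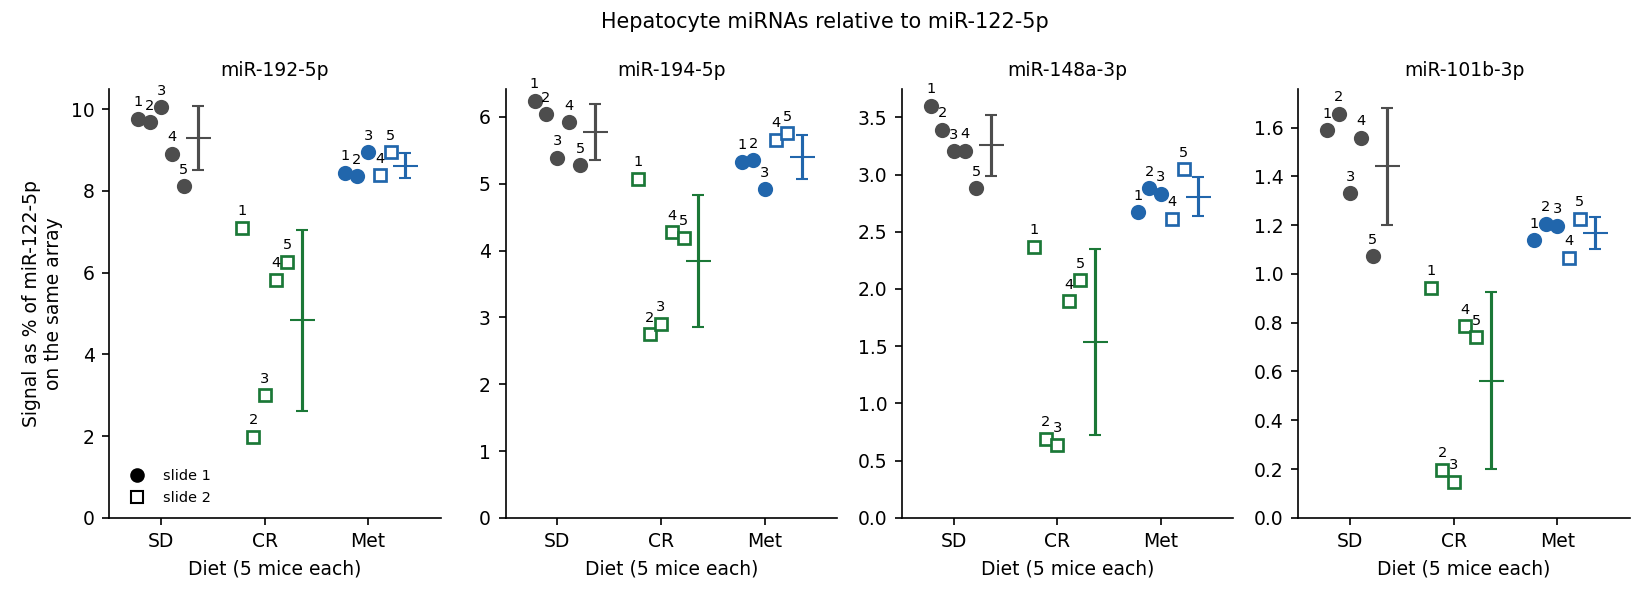
Total gene signal of 4 hepatocyte miRNAs as a percentage of that of miR-122-5p on the same array, in each mouse (numbered points) by diet, with the mean ± standard deviation of 5 mice. Circles are slide 1 and squares slide 2. The CR mice lie below the SD mice in all 4 panels, for miR-192-5p at 1.98% to 7.10% against 8.11% to 10.04%, with mice 2 and 3 lowest.

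Markers of other liver cells were dim beside miR-122-5p, as measured by signal. miR-126-3p, an endothelial miRNA, had 3.12% of its mean signal, miR-199a-3p of stellate and other mesenchymal cells had 0.330%, and miR-223-3p of myeloid cells had 0.291%. miR-200b-3p of bile duct and other epithelium had 0.0493%, and miR-144-3p of red cells had 0.0277% and was detected on 5 arrays. A further red cell miRNA, miR-451a, was tested but missed by the name match, so its share and calls are not given. Its mean z-score was 1.31 (0.0197 to 2.04), beside 1.85 for miR-126-3p. Of the 13 tested names matched in the other lists, which leave out miR-451a, 0 were called between Met and SD, beside 1.12% of all tested miRNAs in limma. There 0 had an unadjusted p of at most 0.05 (6.74% of all tested miRNAs did). Between CR and SD, 0 of the 13 were called, beside 17.4% of all tested miRNAs in limma, with 6 at that p (41.6% of all tested miRNAs). The counts for the 13 were alike by limma and by the methods' pairwise test. In limma, 1 of the 13, miR-126-3p, was called lower in CR than in Met, beside 16.3% of all tested miRNAs, and the pairwise test called 0. Summed, the endothelial list held 3.40% to 4.02% of the miR-122-5p signal in SD, 1.504% to 3.49% in CR and 3.07% to 3.70% in Met, and the leukocyte and Kupffer list 0.727% to 1.25%, 0.287% to 0.850% and 0.594% to 1.52%. The part of other cells in the values above was not tested.

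The miRNAs most like miR-122-5p across the 15 arrays were found by Pearson's r between z-scores, as a description with no test, since they were picked by that measure out of 177. They were let-7b-5p (r = 0.779, Spearman's rho = 0.532), let-7c-5p (r = 0.741, rho = 0.539), miR-345-5p (r = 0.718, rho = 0.650), miR-92a-3p (r = 0.708, rho = 0.643) and miR-125b-5p (r = 0.701, rho = 0.586). Without SD mice 1 and 2, the arrays farthest from the median miR-122-5p z-score, r was 0.491, 0.450, 0.597, 0.641 and 0.504. The median r over the 177 was 0.0447. The arrays share slides and diets, and all values of an array share its mean and standard deviation.

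Of these, the let-7 pair shares its seed, as their RefSeq sequences show, with the seed in capitals.
let-7b-5p: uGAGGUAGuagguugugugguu
let-7c-5p: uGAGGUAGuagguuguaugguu
miR-345-5p: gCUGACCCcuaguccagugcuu
miR-92a-3p: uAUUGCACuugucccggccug
miR-125b-5p: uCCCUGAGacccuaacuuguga
The other 3 have seeds of their own. let-7 miRNAs restrain growth genes such as Hmga2, miR-92a-3p belongs to the miR-17-92 cluster and miR-125b-5p is the mammalian lin-4 homolog.

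let-7b-5p had its lowest mean in SD, as miR-122-5p did, but its highest in CR and not in Met, at 2.55 ± 0.216 in SD, 2.86 ± 0.0633 in CR and 2.76 ± 0.113 in Met. It was called higher in CR than in SD, by 0.307 (SE 0.109, adjusted p = 0.0438), with a Z ratio of 1.85, beside 2.81% of all tested miRNAs called in that direction. Its z-scores in SD mice 1 to 5 were 2.36, 2.38, 2.72, 2.45 and 2.84, so that mouse 5 was the highest, as for miR-122-5p. let-7b-5p was picked for its likeness to miR-122-5p on these same arrays, so neither this pattern nor the call is independent of that choice. CR and SD also shared no slide.

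At the other end were miR-1897-5p (r = -0.799), miR-721 (r = -0.772) and miR-320-3p (r = -0.657). They rested largely on SD mouse 1, which had the lowest z-score of miR-122-5p and the highest of all 3. miR-721 stood at 2.60 in SD mouse 1 and between -0.0143 and 0.610 in the other 14 livers. Without SD mouse 1, r was -0.530, -0.382 and -0.413. On the unscaled log2 total gene signal, where the brightness of the whole array counts, the median r with miR-122-5p over the 177 was 0.701, and 34 miRNAs had an r above 0.9.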

How the data were processed

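Cy3-labeled total RNA from each of 15 livers was put on its own Agilent mouse miRNA array with 1 color. The authors deposited each array's scanner output from Feature Extraction 11.5.1.1, which gives linear intensities without normalization between arrays. Flags of 0 or 1 in the same deposited output mark detection, spots well above background, saturation and outliers. They also deposited a table of one score per spot and array, 15744 lines of which 1109 hold no value, and these scores equaled z-scores of the ln median signal over all spots, control spots included and background not subtracted, to within 0.0005. No 2 arrays were identical, and spot signals correlated between arrays at 0.942 to 0.995.

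Here z-scores were recomputed from the deposited intensities without outlier spots, and spots, then probes, were averaged. The 178 of 696 names with detection in every mouse of some diet were tested in a single fit of the 15 arrays with a mean-variance trend (limma 3.58.1, R 4.3.3). The limits were those of the methods, whose pairwise z-test was an alternative. Shares and unscaled levels were compared by exact permutation tests. Nothing in the labels says that the same number in 2 diets marks a shared animal, litter or day. The p-values set a difference against the spread between arrays, 1 per mouse, which also holds labeling, hybridization and slide. The number of mice, 5 per diet, limits the precision. This fit was tested on simulated data with known changes. Other steps used Python 3.11.15 with scipy 1.17.1, pandas 2.3.3, matplotlib 3.10.9 and numpy 2.4.6.

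The alternatives in scaling were probes scaled to the 75th percentile, the total gene signal scaled to its 75th percentile, quantile normalization, z-scores over tested miRNAs, centering without division and normexp with an offset of 50. In those scaled to a 75th percentile, values were log2 and the divisor of the Z ratio was taken over the 178 tested miRNAs. Their Z ratios and calls therefore do not compare directly with the others. The others were the brightest probe, the deposited table, other filters, outlier spots kept, fits of 2 diets, blocks for slide or replicate number, and leaving out each mouse. Arrays of 1 slide for the z-scores and call counts, names without a suffix as the denominator, and leaving out CR mice 2 and 3 together were chosen after seeing the data. The member, the cell type lists and the named miRNAs were chosen with earlier results of these data known. Named miRNAs were the 5 brightest by mean total gene signal, the 5 highest and 3 lowest r with miR-122-5p, the 2 brightest other hepatocyte miRNAs and the brightest matched name of each other list. The match by name missed miR-451a of the red cell list. The remaining hepatocyte miRNAs, and the names that came next to miR-122-5p without a suffix, were named after their values were seen. Of 23 names looked up, 16 matched a RefSeq mature sequence of GRCm38.p6. The array annotation refers to mm9, and no coordinates of that build are given. The sequence of miR-122-5p is not reported here.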

Additional observations from a re-analysis of the deposited data

How the results depend on the processing

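For miR-122-5p between Met and SD, the Z ratio stayed positive under all 17 alternatives other than leaving out a mouse, and the z-test alone made a call there (4.13). With each mouse left out in turn it ran from 2.94 to 4.58, and a call was made without SD mouse 5. Between CR and SD it ran from 0.837 to 1.82 with each mouse left out, with calls without SD mouse 5 (1.64) and without CR mouse 3 (1.82). It became a call with z-scores over the tested miRNAs (3.08) and with the brightest probe (1.64), and it turned negative with centering without division (-1.22), for which the smaller standard deviation of the CR arrays accounts by construction, and with normexp and quantile normalization (-0.207), for which the cause was not tested. Between CR and Met it ran from -0.420 to 0.0588 with each mouse left out, positive without CR mouse 3. It turned positive with the 75th percentile of detected probes (0.232), the total gene signal (0.169) and z-scores over the tested miRNAs (1.41), and it became a call with normexp (-1.91). The cause was not tested.

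The share of the summed total gene signal differed from SD by 2.11 to 3.56 points for Met and 3.02 to 4.46 for CR with each mouse left out, passing the limit only without SD mouse 5 in both. CR exceeded Met by 0.540 to 1.49 points, and with the median spot signal in place of the total gene signal the difference was -0.580, beside 0.616 for CR against SD and 1.20 for Met against SD. The unscaled log2 difference ran from 0.16 to 0.33 for Met against SD, from -0.37 to -0.04 for CR against SD and from -0.61 to -0.27 for CR against Met, with each mouse left out, and none passed. Minus the positive control spots it was 0.16, -0.60 and -0.76. Without CR mice 2 and 3 that for CR against SD was 0.10.

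Between Met and SD, 2 miRNAs were called, 0 with either 75th percentile, the total gene signal, quantile normalization, z-scores over the tested miRNAs, slide as a block or slide 1 alone, 1 without a filter, 4 with only the 2 diets in the fit, 13 with the z-test, and 1 to 9 with each mouse left out, the most without SD mouse 5. Between CR and SD, 31 were called, 18 with the total gene signal, 17 with slide as a block and 26 to 36 with each mouse left out. Between CR and Met, 37 were called, 21 with either 75th percentile, 16 with the total gene signal, 12 on slide 2 alone, 18 without CR mice 2 and 3 and 29 to 42 with each mouse left out.

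Deviations of same-numbered mice correlated from -0.56 to 0.71 for Met and SD, -0.36 to 0.33 for CR and SD and -0.45 to 0.62 for CR and Met. Mice of different numbers were not compared, so these values do not tell whether the numbers pair the mice. With the replicate number as a block, miR-122-5p had Z ratios of 4.13, 1.31 and -0.221 with adjusted p = 0.896, 0.221 and 0.832 in limma, and 2, 32 and 37 miRNAs were called. In the paired exact permutation test of the share, the differences were 2.60, 3.50 and 0.904 points, with adjusted p = 0.281, 0.188 and 0.375, and those of the unscaled log2 signal were 0.23, -0.23 and -0.46. The smallest p of that test is 0.0625, so it could not pass.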
